A study of Mus musculus with 12 samples.

Results

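The expression of 8 genes of the dermal papilla was examined in mouse skin: Corin, Alpl, Vcan, Prom1, Ncam1, Rspo3, Crabp1 and Wif1. They were chosen by gene symbol, and every probe set that carried one of these symbols alone was taken, which gave 22 of the 45037 probe sets tested. Vcan had 8 probe sets, Ncam1 had 7, Rspo3 had 2 and each of the other genes had 1. The skin came from C3H/HeJ mice with alopecia areata, an autoimmune loss of hair that follows grafting of alopecic skin of the same strain. Baricitinib, an inhibitor of the Janus kinases JAK1 and JAK2, was applied to the skin of 3 mice and vehicle to 3 mice once disease was established, and each of the 6 mice was sampled at the start and after 12 weeks on Affymetrix mouse genome arrays. The 4 groups of 3 arrays were therefore baricitinib week 12, baricitinib week 0, vehicle week 12 and vehicle week 0. All 4 groups came from mice in which the graft had induced disease, so that no skin of disease-free mice is among them. The week 0 samples are untreated in both arms. By week 12 the study saw hair regrowth and less inflammation with topical baricitinib, and no regrowth with vehicle. Baricitinib week 12 is thus not alike in disease state to the other groups. Levels are log2 values after robust multi-array averaging (RMA), and a probe set was called at a limma adjusted p under 0.05 over all probe sets tested.

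The dermal papilla is a small cluster of specialized fibroblasts at the base of the hair follicle. It signals to the epithelial matrix around it, through Wnt ligands and their modulators, growth factors and extracellular matrix, and these signals start and sustain hair growth. Many genes of the papilla are known to vary with the hair cycle, and most are also used by other cells of the skin. The measurements were made on whole skin, in which fewer cells of a type and less RNA per cell cannot be told apart, and the stage of the hair cycle is not given in the labels.

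Of the array facts that touch these genes, 2 arrays stood apart from the others. Baricitinib week 12 replicate 1 and baricitinib week 0 replicate 2 had standard deviations over all probe sets of 2.61 and 2.56, against 2.73 to 2.85 on the other 10 arrays. The methods of the study state that a baricitinib array of each time failed quality control and was left out of the later steps, without naming it. They list 1 control sample at baseline as left out too, without its experiment, so that a vehicle week 0 array may also be meant. All 3 arrays of each group were used here. The difference between the 3' and 5' control probe sets of beta-actin, which is larger where RNA is more degraded, was 3.52, 1.53 and 1.52 at baricitinib week 12. It was 3.25, 4.36 and 2.94 at baricitinib week 0, 3.19, 3.24 and 3.36 at vehicle week 12, and 1.62, 3.57 and 3.86 at vehicle week 0. Results are therefore also given without these arrays, or with this difference as a covariate, where that bears on a call.

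Corin fell with baricitinib, and no other of the 22 probe sets passed the test. Corin is a membrane serine protease made by dermal papilla cells, known for its part in coat colour through the agouti pathway. Its probe set 1419017_at had log2 levels of 4.43, 3.20 and 2.93 at baricitinib week 12, against 7.34, 7.30 and 6.98 at baricitinib week 0. The vehicle arrays had 5.55, 6.44 and 6.92 at week 12, against 6.71, 6.79 and 7.32 at week 0. All 3 arrays of baricitinib week 12 lay below all 9 others, and they were the only ones on which Corin was below the median of its array. The means were 3.52 ± 0.80 at baricitinib week 12, 7.21 ± 0.20 at baricitinib week 0, 6.30 ± 0.70 at vehicle week 12 and 6.94 ± 0.33 at vehicle week 0 (SD, n = 3 each).

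The log2 difference of Corin between baricitinib week 12 and week 0 was -3.68 (SE 0.42, 95% interval -4.60 to -2.76, adjusted p = 0.0028), a level 12.9-fold lower. Against vehicle at week 12 the difference was -2.78 (SE 0.42, adjusted p = 0.0165), or 6.86-fold lower. These comparisons share the arrays of baricitinib week 12 and are not independent, and since Corin was then below the array median, where RMA compresses differences, the folds are approximate. Corin was 1 of 22 probe sets called in each comparison, beside 1.24% of all probe sets for baricitinib week 12 against week 0 and 0.58% for baricitinib against vehicle at week 12. In the vehicle mice the difference between week 12 and week 0 was -0.64 (SE 0.42, adjusted p = 1).

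In each of the 3 baricitinib mice Corin was lower at week 12 than at week 0, by log2 differences of -2.91, -4.10 and -4.05. In the vehicle mice the differences were -1.17, -0.35 and -0.40, so that the mice of the 2 arms did not overlap. The share of all probe sets whose mice separate in this way was not computed. Probe set 1425126_at of Ncam1, which was below the median on most arrays, separated too. Its changes were -1.27, -0.14 and -0.46 with baricitinib, against -0.10, 1.39 and 0.28 with vehicle. The difference of the changes, -3.05 on the log2 scale (SE 0.59), did not pass the test (adjusted p = 0.19, unadjusted p = 0.000282). No probe set of the whole table was called for it, a share of 0%, although 6.27% had an unadjusted p under 0.05. Without baricitinib week 12 replicate 1 it was -3.50 with an adjusted p of 0.0377, in a fit that called 0.122% of all probe sets.

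The fall of Corin between week 0 and week 12 kept its call when any single array of these groups was left out, with adjusted p between 0.0012 and 0.019. The comparison with vehicle at week 12 was less stable. Its adjusted p was 0.0804 without baricitinib week 12 replicate 2, 0.0682 without replicate 3, 0.0822 without vehicle week 12 replicate 2 and 0.0672 without vehicle week 12 replicate 3. These fits called fewer probe sets of the whole table as well, at 0.171%, 0.178%, 0.107% and 0.202% in the same order. Without vehicle week 12 replicate 1 Corin was called (adjusted p = 0.0362), beside 0.0711% of all. In fits of only the 2 groups compared, Corin was called between the weeks (adjusted p = 0.0354, beside 0.215% of all) and not against vehicle (adjusted p = 0.118, beside 0.122%). With the mouse as a fixed block, Corin was called between the weeks (adjusted p = 0.0102, beside 0.351% of all). With the beta-actin difference as a covariate, Corin was called in both comparisons, at -3.16 (adjusted p = 0.00439, beside 3.64% of all) between the weeks and -2.36 (adjusted p = 0.0164, beside 1.61%) against vehicle. The vehicle week 0 array with a beta-actin difference of 1.62, close to those of 2 baricitinib week 12 arrays, had Corin at 6.71. This is 1 array only, and the part of RNA quality in the fall of Corin was not tested.

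**Figure D1:**
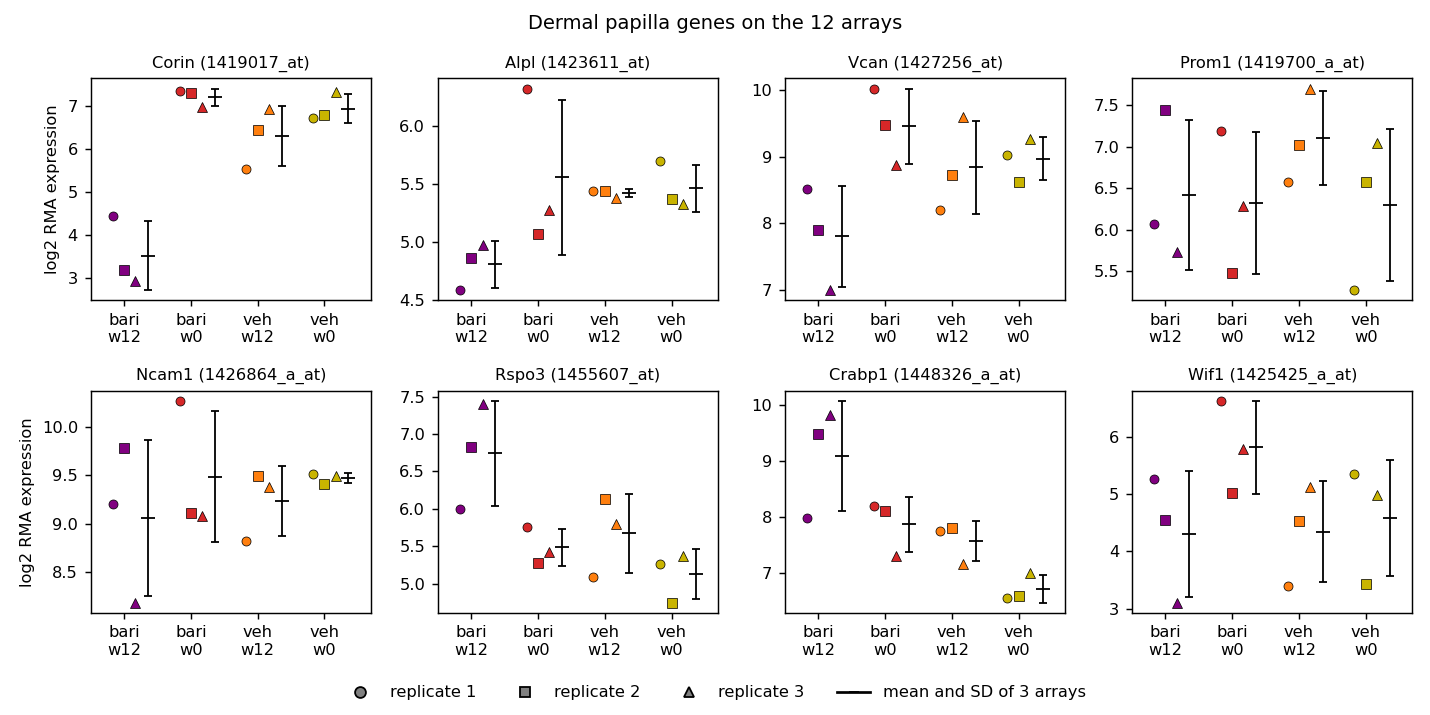
Log2 RMA level (vertical axes, each with its own range) of the main probe set of each of the 8 genes on the 12 arrays, by group (horizontal axes; bari, baricitinib; veh, vehicle; w, week). Points are arrays, with the shape giving the replicate, beside the mean with its SD (n = 3); the 3 points of Corin at baricitinib week 12, at 2.93 to 4.43, lie below the 9 others, and Crabp1 has its 2 highest points, 9.48 and 9.81, in that group.

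Vcan encodes versican, a large chondroitin sulfate proteoglycan of the papilla matrix. Its brightest probe set, 1427256_at, had log2 levels of 8.51, 7.90 and 6.99 at baricitinib week 12, against 10.01, 9.48 and 8.87 at baricitinib week 0. At vehicle week 12 it had 8.20, 8.72 and 9.59, against 9.02, 8.62 and 9.26 at vehicle week 0. The baricitinib groups did not overlap, while baricitinib and vehicle at week 12 did. The difference of -1.65 between the weeks (SE 0.45, 95% interval -2.64 to -0.67) missed the threshold (adjusted p = 0.116), as did that of -1.04 against vehicle (adjusted p = 0.426). Within mice, the log2 differences of this probe set between week 12 and week 0 were -1.49, -1.59 and -1.88 with baricitinib, against -0.82, 0.10 and 0.33 with vehicle. The arms did not overlap, with no share over all probe sets to set beside this. The difference of the changes, -1.52 (SE 0.64), was not called (adjusted p = 0.742).

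Another 2 of the 8 probe sets of Vcan were above the array median on most arrays. At 1421694_a_at the levels were 6.19, 4.83 and 4.89 at baricitinib week 12, against 7.92, 7.36 and 6.26 at week 0, and the groups did not overlap (log2 difference -1.88, SE 0.46, adjusted p = 0.0797). At 1427257_at they were 8.40, 5.98 and 5.55, against 8.66, 8.17 and 7.02, and the groups overlapped through replicate 1 of week 12 (difference -1.31, SE 0.63, adjusted p = 0.443). Within mice the changes at 1427257_at were -0.26, -2.19 and -1.47 with baricitinib, against -0.12, 0.22 and -0.33 with vehicle, which overlap. Those at 1421694_a_at, -1.73, -2.53 and -1.37 against -1.08, 0.25 and -0.12, did not, again with no share over all probe sets. These 3 probe sets followed each other over the 12 arrays, with Pearson r to the brightest of 0.92 and 0.75. The other 5 were below the median on every array, with group means between 1.83 and 3.33, and their differences between the baricitinib weeks ran from -0.61 to 0.36.

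Without baricitinib week 12 replicate 1, the array with the narrower spread, all 3 bright probe sets of Vcan passed the test against baricitinib week 0. Their log2 differences were then -2.01 (adjusted p = 0.0456), -2.19 (0.0266) and -2.32 (0.0254). That fit called 6 of the 22 probe sets, beside 3.03% of all, and the others were Corin, Rspo3 and Crabp1. When baricitinib week 0 replicate 2 was left out as well, Vcan was at -1.99 (adjusted p = 0.0944), and the 2 probe sets called were those of Corin and Crabp1, beside 1.91% of all. The same 2 were called against vehicle at week 12, at -3.23 (adjusted p = 0.00804) and 2.08 (adjusted p = 0.0184), beside 2.24% of all. The calls of Vcan thus rested on which arrays were used. The 2 arrays of baricitinib week 12 left in these fits had the lowest beta-actin differences, 1.53 and 1.52. Treatment and RNA quality cannot be told apart there. With that difference as a covariate on all arrays, Corin alone of the 22 probe sets was called in either comparison, and Vcan, Rspo3 and Crabp1 were not.

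**Figure D2:**
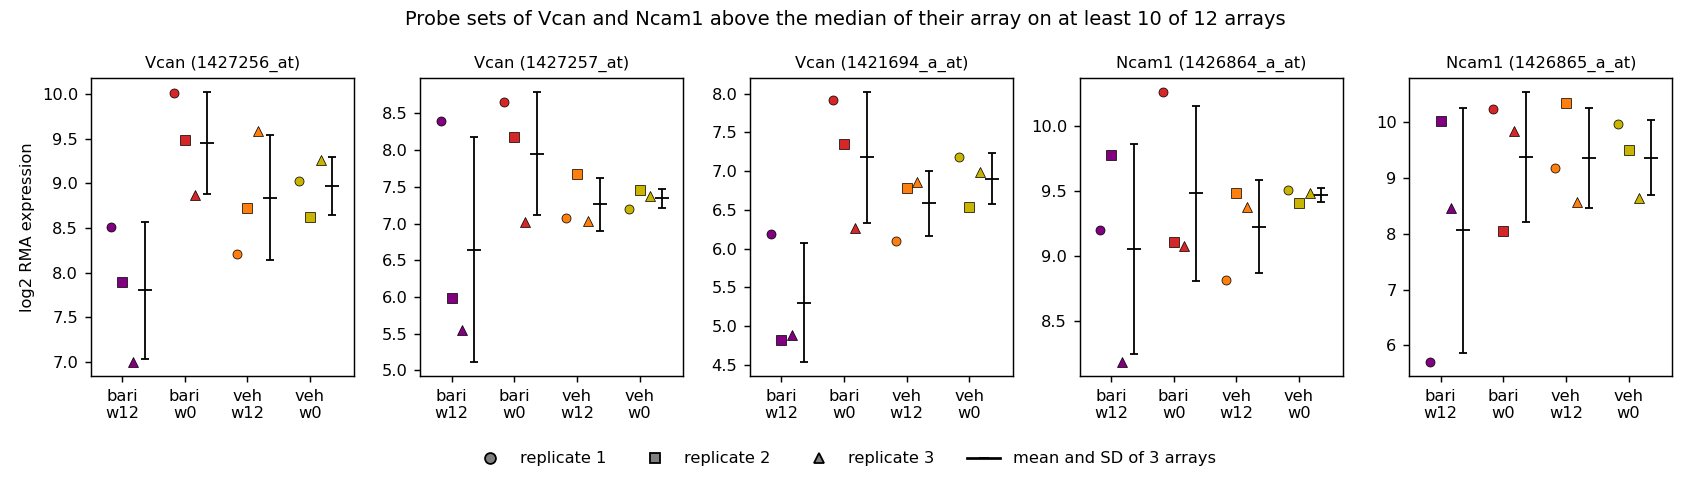
Log2 RMA level (vertical axes, each with its own range) of the 3 probe sets of Vcan and the 2 of Ncam1 that were above the median of their array on at least 10 of the 12 arrays, by group as labelled (bari, baricitinib; veh, vehicle; w, week). Points are arrays, beside the mean with its SD (n = 3); replicates 2 and 3 of baricitinib week 12 are the lowest at all 3 Vcan probe sets, and the 2 Ncam1 probe sets do not rank the arrays alike.

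Rspo3 encodes R-spondin 3, a secreted ligand that strengthens Wnt signalling through receptors of the Lgr family. Its main probe set, 1455607_at, had log2 levels of 6.00, 6.83 and 7.39 at baricitinib week 12, against 5.76, 5.28 and 5.43 at baricitinib week 0. At vehicle week 12 the levels were 5.10, 6.13 and 5.80, against 5.26, 4.75 and 5.38 at vehicle week 0. The baricitinib groups did not overlap, but the lowest array of baricitinib week 12 lay under the highest of vehicle week 12. The difference between the baricitinib weeks was 1.25 (SE 0.37, 95% interval 0.44 to 2.06, adjusted p = 0.149) and that against vehicle was 1.07 (adjusted p = 0.284), so that neither was called. In the vehicle mice week 12 differed from week 0 by 0.54 (SE 0.37), in the same direction. Without baricitinib week 12 replicate 1, the difference between the weeks was 1.62 (adjusted p = 0.0346), and without both narrow arrays it was 1.52 (adjusted p = 0.0769). The second probe set of Rspo3, 1443187_at, was below the array median on all 12 arrays, with a difference between the baricitinib weeks of 0.49 (SE 0.34).

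Wif1, a secreted inhibitor that binds Wnt ligands, had log2 levels of 5.28, 4.55 and 3.10 at baricitinib week 12, against 6.64, 5.03 and 5.80 at baricitinib week 0. In vehicle skin it had 3.39, 4.53 and 5.13 at week 12, against 5.35, 3.43 and 4.99 at week 0. All these groups overlapped, and a spread of 0.81 to 1.11 (SD) within groups left the difference of -1.51 between the baricitinib weeks (SE 0.68) far from the threshold (adjusted p = 0.392). Against vehicle at week 12 the difference was -0.04 (95% interval -1.52 to 1.44). Wif1 was above the array median on only 4 of the 12 arrays.

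Crabp1, a cytosolic protein that binds retinoic acid, had log2 levels of 7.97, 9.48 and 9.81 at baricitinib week 12, against 8.19, 8.11 and 7.30 at baricitinib week 0. In vehicle skin the levels were 7.75, 7.80 and 7.15 at week 12, against 6.56, 6.60 and 7.00 at week 0. Replicates 2 and 3 of baricitinib week 12 were the highest of the 12 arrays, while replicate 1 lay among those of baricitinib week 0. Crabp1 at baricitinib week 12 was above all arrays of vehicle week 12, by a mean of 1.52 (SE 0.44, 95% interval 0.57 to 2.48), which missed the threshold (adjusted p = 0.179). The difference between the baricitinib weeks was 1.22 (SE 0.44, adjusted p = 0.246). Without baricitinib week 12 replicate 1 the differences were 2.08 against vehicle (adjusted p = 0.0177), in a fit that called 1.39% of all probe sets, and 1.78 between the weeks (adjusted p = 0.0226). With the beta-actin difference as a covariate on all arrays, Crabp1 was called in neither comparison.

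Crabp1 also differed in groups other than baricitinib week 12. Baricitinib week 0 was above vehicle week 0 on every array before any treatment, by 1.15 (SE 0.44, unadjusted p = 0.0221, adjusted p = 1), and vehicle week 12 was above vehicle week 0 on every array, by 0.85 (SE 0.44, adjusted p = 1). In both comparisons 0 of the 22 probe sets, and 0% of all, were called by limma. At an unadjusted p under 0.05 these were 1 of 22 and 1.13% of all between the arms at week 0, and 0 of 22 and 2.46% of all between the vehicle weeks. The groups did not overlap at 2 of 22 probe sets between the arms at week 0, beside 5% of all. Between the vehicle weeks they did not overlap at 1 of 22, that of Crabp1, beside 8.27% of all. The change of Crabp1 with baricitinib exceeded that with vehicle by only 0.37 (SE 0.62, 95% interval -0.98 to 1.72). Within mice the changes were -0.22, 1.37 and 2.51 with baricitinib, against 1.20, 1.20 and 0.16 with vehicle, which overlap.

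**Figure D3:**
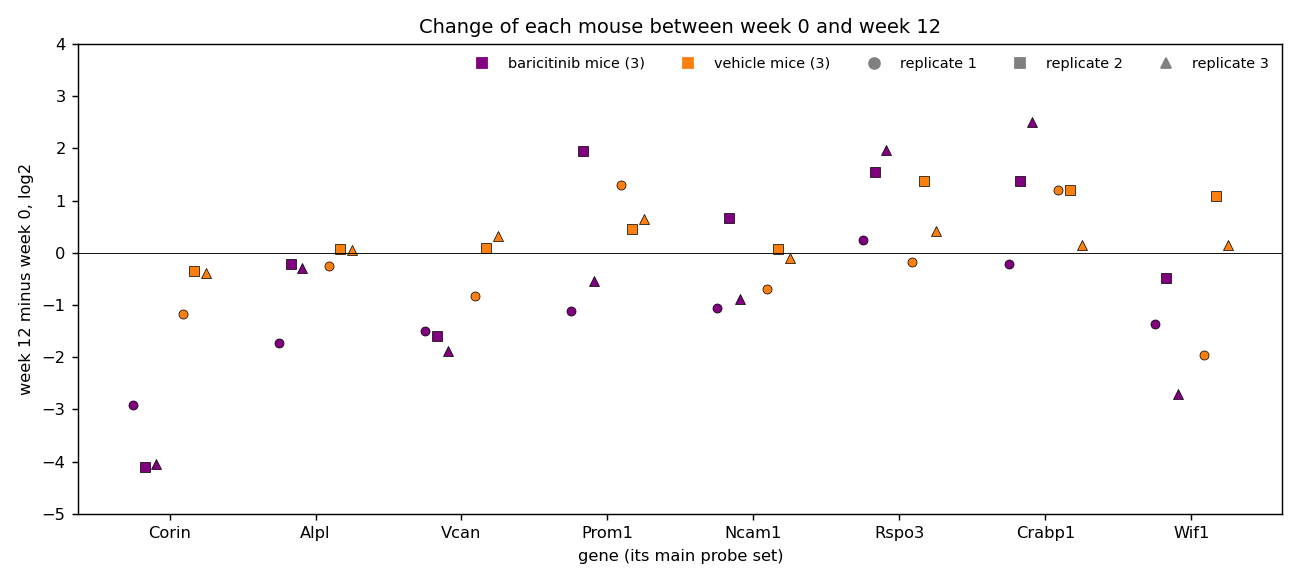
Log2 level at week 12 minus that at week 0 (vertical axis) of the main probe set of each gene (horizontal axis) in each mouse, with baricitinib mice to the left of vehicle mice and the shape giving the replicate. For Corin and this probe set of Vcan all 3 baricitinib mice lie below all 3 vehicle mice, whereas for Rspo3 and Crabp1 the arms overlap. At 1427257_at of Vcan, which is not shown, the arms overlap too. The share of all probe sets whose mice separate by arm was not computed.

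Among the remaining genes, Alpl encodes the alkaline phosphatase whose activity is used to stain the papilla. It had log2 levels of 4.58, 4.86 and 4.97 at baricitinib week 12, against 6.32, 5.07 and 5.27 at baricitinib week 0, and 5.44, 5.44 and 5.38 at vehicle week 12, against 5.69, 5.37 and 5.32 at vehicle week 0. Its 3 arrays of baricitinib week 12 lay below all others, by a small distance. The difference was -0.75 between the baricitinib weeks (SE 0.30, adjusted p = 0.32), in which replicate 1 contributed -1.73 and the other mice -0.21 and -0.30. Against vehicle at week 12 it was -0.61 (SE 0.30, adjusted p = 0.509).

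Prom1 encodes prominin 1 (CD133), a membrane glycoprotein used to sort papilla cells of mouse skin. It had 6.07, 7.44 and 5.74 at baricitinib week 12, against 7.19, 5.48 and 6.28 at baricitinib week 0, and 6.58, 7.02 and 7.70 at vehicle week 12, against 5.27, 6.57 and 7.04 at vehicle week 0. All groups overlapped. The difference between the baricitinib weeks was 0.09, and its 95% interval of -1.18 to 1.37 also holds changes of more than a log2 unit in either direction.

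Ncam1, the neural cell adhesion molecule, is found in the papilla and also in nerve and muscle. At its main probe set, 1426864_a_at, the levels were 9.21, 9.78 and 8.19 at baricitinib week 12, against 10.27, 9.11 and 9.08 at baricitinib week 0, and 8.82, 9.49 and 9.38 at vehicle week 12, against 9.51, 9.41 and 9.49 at vehicle week 0. The groups overlapped, with a difference of -0.43 between the baricitinib weeks (SE 0.42, adjusted p = 0.763). The other bright probe set, 1426865_a_at, correlated with it at only r = 0.40 over the 12 arrays, and its level of 5.69 on baricitinib week 12 replicate 1 was far below the range of 8.05 to 10.34 on the others. The remaining 5 probe sets were below the median on nearly every array. The summed linear level of 8 Schwann cell and nerve genes was 3500 to 5480 at baricitinib week 12, 2520 to 3770 at baricitinib week 0, 3170 to 4390 at vehicle week 12 and 2040 to 3760 at vehicle week 0. That of 10 muscle genes overlapped between all groups, at 18600 to 55600, 28500 to 38900, 27500 to 41000 and 29600 to 42400 in the same order. The part of these tissues in the values of Ncam1 was not tested.

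Over the 22 probe sets, the median log2 difference between the baricitinib weeks was -0.32, beside 0.00 for all probe sets tested, and against vehicle at week 12 it was -0.04, beside 0.01. An unadjusted p under 0.05 was reached by 7 of the 22 between the baricitinib weeks and 6 of the 22 against vehicle, beside 12.3% and 10.9% of all. Probe sets of the same gene are not independent, and the members were chosen with earlier results of these data known. The counts are thus a description only. The groups did not overlap at 7 of 22 probe sets between the baricitinib weeks and at 4 of 22 against vehicle, beside 15.9% and 17.1% of all. Neither direction was general, since Corin, Vcan, Alpl and Wif1 had lower means at baricitinib week 12 than at week 0 and Rspo3 and Crabp1 had higher means.

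**Figure D4:**
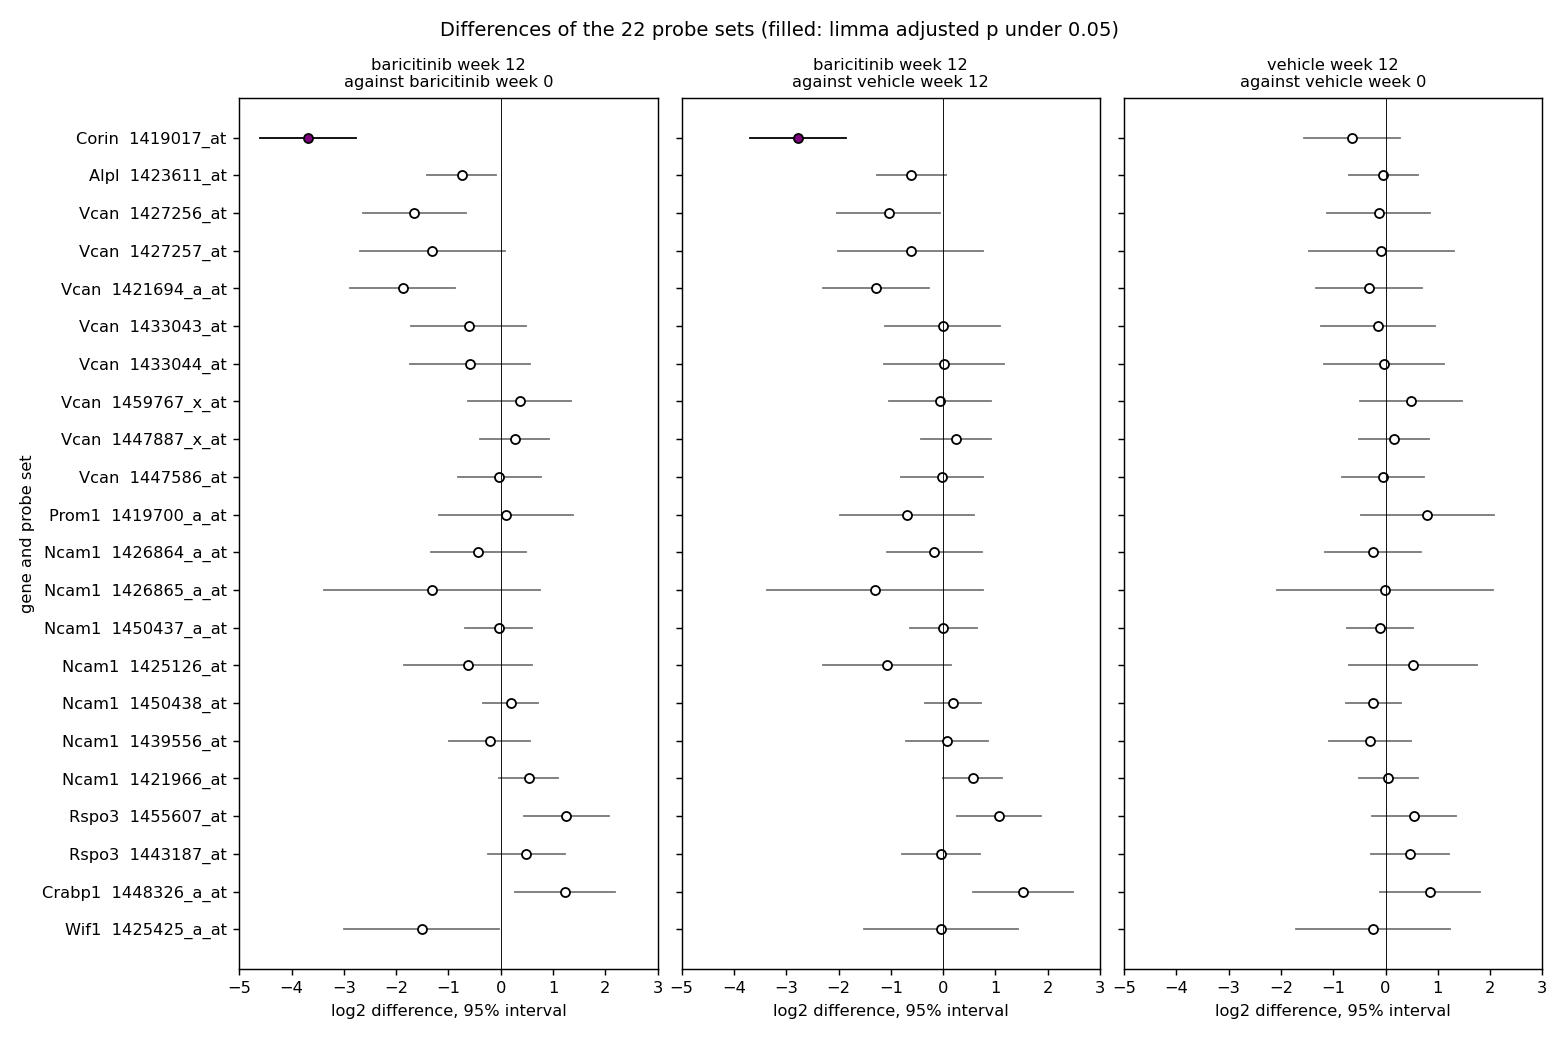
Log2 difference (horizontal axes) with its 95% interval for each of the 22 probe sets (rows) in 3 comparisons. Filled points passed the limma test at an adjusted p under 0.05, which is Corin alone, at -3.68 between the baricitinib weeks and -2.78 against vehicle at week 12; in the vehicle mice every interval includes 0.

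Over the 12 arrays, which come from 6 mice and share group, animal and RNA quality, Corin and Vcan varied together (Pearson r = 0.88), as did Rspo3 and Crabp1 (r = 0.86). Corin ran opposite to both Rspo3 and Crabp1 (r = -0.79 each). Outside the 8 genes, the patterns most like that of Corin were those of Basp1, Ttyh3 and Fen1 (r = 0.97 each). For Vcan they were Adamts4 (r = 0.94), Zranb3 (0.94) and Ptprv (0.92), and for Rspo3 they were Adcy6 (0.98), Il12rb2 (0.95) and Gas6 (0.93). Crabp1 was most like Ndrg3, Il6ra and Prss36 (r = 0.93 each), and Wif1 most like Gli1 (0.93), Dct (0.93) and Tyr (0.92). Alpl was closest to Pgap6, Ncaph and Adamts15 (r = 0.87 to 0.90), Prom1 to Lrrn1, Plscr4 and Ttn (0.90 to 0.91) and Ncam1 to Fgl2, Tgfb3 and Jdp2 (0.84 to 0.85). These correlations describe the 12 arrays and were not tested.

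The promoters of Corin, Vcan and Crabp1 are shown because Corin and Vcan varied together over the arrays and Crabp1 ran opposite to Corin. The sequences are the 250 bases before a start site, 5′ to 3′ on the strand of the gene, from RefSeq (GRCm38.p6), with the CCAAT motif, searched on both strands, in capitals. Corin lies at chr5:72504541-72504790 (minus strand), Vcan at chr13:89742513-89742762 (minus strand) and Crabp1 at chr9:54764498-54764747 (plus strand). The windows of Corin and Crabp1 adjoin the first base of the gene. That of Vcan lies inside the gene, whose first base is at 89743027, and so precedes an internal start site.
Corin: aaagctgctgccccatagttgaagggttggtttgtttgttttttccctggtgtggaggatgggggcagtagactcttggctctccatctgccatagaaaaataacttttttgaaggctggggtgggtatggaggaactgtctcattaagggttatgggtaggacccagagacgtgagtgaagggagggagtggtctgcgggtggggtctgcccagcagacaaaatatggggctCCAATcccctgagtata
Vcan: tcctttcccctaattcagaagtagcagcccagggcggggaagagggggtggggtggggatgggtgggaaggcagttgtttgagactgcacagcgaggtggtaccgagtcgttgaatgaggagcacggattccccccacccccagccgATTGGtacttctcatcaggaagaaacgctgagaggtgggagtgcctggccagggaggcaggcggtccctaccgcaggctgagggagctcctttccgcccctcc
Crabp1: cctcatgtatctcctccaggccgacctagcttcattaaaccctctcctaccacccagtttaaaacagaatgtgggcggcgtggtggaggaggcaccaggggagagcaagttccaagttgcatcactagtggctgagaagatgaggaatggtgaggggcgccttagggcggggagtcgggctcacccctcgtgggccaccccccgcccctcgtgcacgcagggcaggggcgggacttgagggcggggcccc
Counted back from the start site, the motif begins at -17 in Corin and at -103, on the other strand, in Vcan, and Crabp1 has none, while 33.8% of 32851 windows of this length hold it. Neither the TCF/LEF motif CTTTGAT (3.21% of all windows) nor TATAAA (12.4%), which do not overlap it, occurs in these 3. Among the 8 windows of the 6 genes with an entry, CTTTGAT was found in none and TATAAA in 1 of Alpl and that of Wif1. CCAAT was also found in 1 window of Prom1, at -35, and Prom1 did not vary with Corin over the arrays (r = 0.07). A link between the motif and the levels was not tested. GC content was 51.2% for Corin, 62.4% for Vcan and 63.6% for Crabp1, beside a median of 52.4% over all windows.

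Of 24 further genes of the papilla measured, 2 rose and 1 fell between the baricitinib weeks, with 12 above and 12 below 0. The median log2 difference was 0.02, beside -0.02 for all genes, of which 2.05% were called. Against vehicle at week 12, 2 rose and 0 fell, with 18 above and 6 below 0 and a median of 0.27, beside -0.04 for all genes, of which 0.951% were called. Igfbp3, which binds insulin-like growth factors, rose by 2.12 on the log2 scale at baricitinib week 12 against week 0 (adjusted p = 0.0145) and by 2.04 against vehicle week 12 (adjusted p = 0.0235). Pappa2, a protease that cleaves such binding proteins, rose by 2.53 between the weeks (adjusted p = 0.0157, with the mouse as a block 0.051) and by 2.09 against vehicle (adjusted p = 0.0473). Cntfr, the receptor of ciliary neurotrophic factor, fell by 2.94 between the weeks (adjusted p = 0.0274, with the block 0.0703), and was at -2.19 against vehicle (adjusted p = 0.118). These 2 calls, of Pappa2 and Cntfr, were thus lost when the mouse was fitted.

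Around versican, 18 genes of its matrix were listed, among them hyaluronan synthases, aggregating proteoglycans and Adamts proteases. Between the baricitinib weeks 13 of the 18 were below 0, with a median of -0.77. An unadjusted p under 0.05 was reached by 9 of them, beside 15.4% of all genes, and 1 was called, beside 2.05% of all genes. That was Adamts20, a protease that cleaves versican, which fell by 5.10 on the log2 scale between the weeks (adjusted p = 0.00128) and by 3.68 against vehicle (adjusted p = 0.0101). Acan (aggrecan) at -3.07 and Has2 (a hyaluronan synthase) at -1.71 missed the threshold between the weeks (adjusted p = 0.0512 and 0.0521). Against vehicle at week 12 Acan was at -1.81 (adjusted p = 0.32) and Has2 at only -0.44 (adjusted p = 0.787). Between the vehicle weeks Has2 was also lower, at -1.59 (SE 0.37), while Acan was at -0.25 (SE 0.66). In the retinoid pathway 1 of 16 genes was called between the weeks, beside 2.05% of all genes. Against vehicle 0 of 16 were called by limma, with 3 of 16 at an unadjusted p under 0.05, beside 12.8% of all genes. Aldh1a3, an enzyme that makes retinoic acid, fell by 4.63 between the weeks (adjusted p = 0.0336) and was at -4.04 against vehicle (adjusted p = 0.0827). Of 29 genes of the Wnt pathway, 0 were called by limma in either comparison, and the median was 0.02 between the weeks. At an unadjusted p under 0.05 there were 6 between the weeks and 4 against vehicle, beside 15.4% and 12.8% of all genes. The largest differences there between the baricitinib weeks were 1.48 for Axin2, a target of the pathway, 1.32 for Lgr6, an R-spondin receptor, and -1.28 for Sfrp4, a secreted inhibitor.

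Markers of the growing hair moved with the same groups as Corin. The study, however, saw hair regrowth in mice given topical baricitinib for 12 weeks and none in vehicle mice. Krt31, Krt33b, Krt82 and Hoxc13, which are in the list used here, also belong to its KRT signature. The values below are RNA levels of biopsies and do not measure hair growth itself. All 13 genes of the hair matrix and shaft were below 0 between the baricitinib weeks, with 6 called and a median of -4.31, and 7 of 8 genes of the inner root sheath were below 0, with 6 called and a median of -4.82. With the mouse as a block, 1 and 2 of these calls were kept, those of Krt35, Krt28 and Krt73. Against vehicle at week 12 the same numbers were below 0, with medians of -2.83 and -3.68. There 2 genes of the matrix and shaft (Krt35 and Shh) and 1 of the inner root sheath (Krt73) were called. Of all genes, 2.05% were called between the baricitinib weeks and 0.951% against vehicle. The summed linear level of the matrix and shaft genes was 1910 to 2310 at baricitinib week 12, 9580 to 25200 at baricitinib week 0, 4890 to 6770 at vehicle week 12 and 2630 to 21400 at vehicle week 0. That of the inner root sheath genes was 2500 to 4850, 29400 to 41000, 17500 to 20700 and 5990 to 38700 in the same groups. At baricitinib week 12, 3 to 9 of the 13 matrix and shaft genes were above the array median, against 12 to 13 at baricitinib week 0, 12 at vehicle week 12 and 11 to 13 at vehicle week 0. The lowest sums outside baricitinib week 12 were those of vehicle week 0 replicate 3, where Corin was at 7.32 and Vcan at 9.26. The part of these cells in the levels of Corin and Vcan was not tested.

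Of the genes of cytotoxic lymphocytes, the cells that surround the follicle in alopecia areata, 2 also fell with baricitinib. Of 8 genes of T and NK cells, 6 were below 0 between the baricitinib weeks, with a median of -1.04 and 2 called, beside 2.05% of all genes. Against vehicle at week 12, 7 were below 0, with a median of -0.87 and 2 called, beside 0.951% of all genes. The 2 were Gzmb, a protease of cytotoxic granules, at -5.05 (adjusted p = 0.00128) between the weeks and -3.66 (adjusted p = 0.0109) against vehicle, and Cd8a, a chain of the CD8 coreceptor, at -4.29 (adjusted p = 0.00912) and -4.39 (adjusted p = 0.0109). Both were also called between the weeks with the mouse as a block. Cd3e, a chain of the T cell receptor complex, was at 0.01 between the weeks. The summed linear level of the 8 genes was 1110 to 2230 at baricitinib week 12, 2680 to 4200 at baricitinib week 0, 2190 to 3770 at vehicle week 12 and 3680 to 4930 at vehicle week 0, so that the range at baricitinib week 12 met only that at vehicle week 12. The part of these cells in the level of Corin was not tested.

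**Figure D5:**
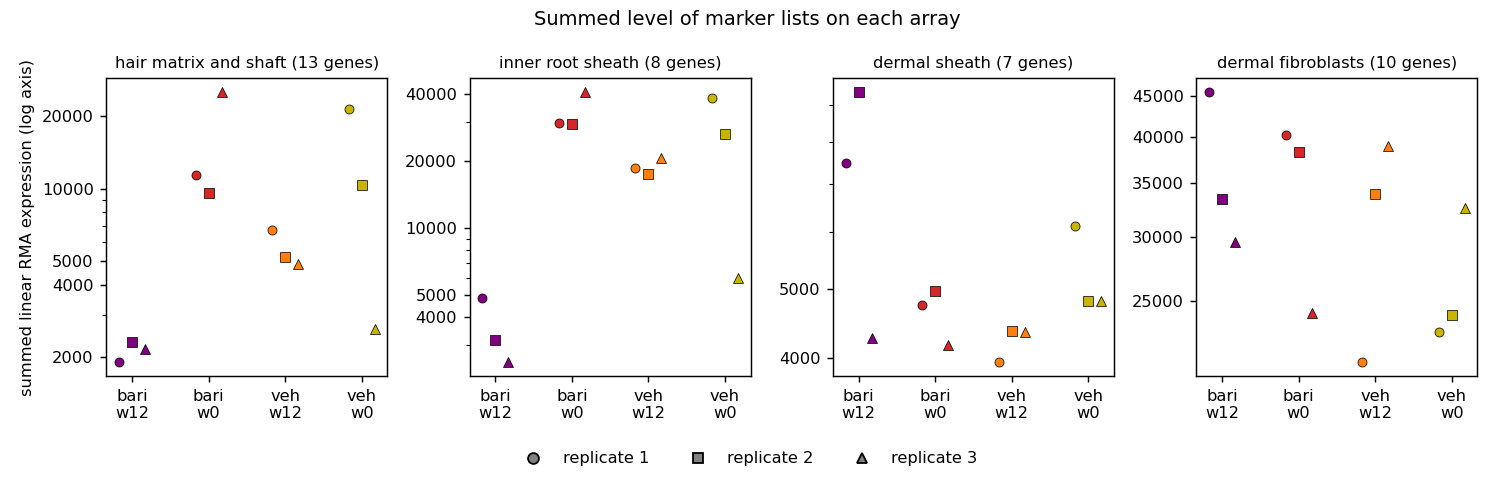
Summed linear RMA level (vertical axes, logarithmic, each with its own range) of 4 marker lists on the 12 arrays, by group as labelled (bari, baricitinib; veh, vehicle; w, week); points are arrays, with the shape giving the replicate. Hair matrix and inner root sheath sums are lowest on the 3 arrays of baricitinib week 12, with vehicle week 0 replicate 3 next to them, while dermal fibroblast sums overlap between all groups.

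Of 10 dermal fibroblast genes 0 were called by limma between the baricitinib weeks (2 at an unadjusted p under 0.05, beside 15.4% of all genes). Their summed level was 29600 to 45500 at baricitinib week 12, 24200 to 40200 at baricitinib week 0, 21000 to 38900 at vehicle week 12 and 22900 to 32600 at vehicle week 0. A further 7 genes were listed for the dermal sheath, the connective tissue around the follicle that is continuous with the papilla. They were Acta2, Itga8, Abcc9, Tagln, Myh11, Cnn1 and Rgs5, and which cells of the skin their levels came from was not tested. All had differences above 0, of which 0 were called and 3 had an unadjusted p under 0.05, beside 15.4% of all genes. Their summed level was 4270 to 9390, 4180 to 4970, 3950 to 4360 and 4810 to 6100 in the same groups. Sums of 10 endothelial genes, at 1670 to 2100 at baricitinib week 12, and of 6 adipocyte genes, at 11600 to 15000, lay above every other array. There they were 783 to 1260 and 4130 to 10200. In each list 1 gene, Cldn5 and Cidec, was called between the baricitinib weeks, beside 2.05% of all genes. Both calls were lost with the mouse as a block (adjusted p = 0.128 and 0.0799). The part of these cells in the higher means of Rspo3 and Crabp1 was not tested.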

How the data were processed

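Skin of 6 mice was measured on 12 arrays, 3 in each of 4 groups taken from the sample labels, which number the animals at both times. The authors amplified and hybridized the RNA, normalized the arrays of this experiment by RMA (version not given in the sources used here) and deposited log2 values, which were used without further filtering. The 64 control probe sets were dropped; 34945 others carried 1 symbol (18193 genes), 932 several and 9160 none. Names come from the platform annotation. One mean per group was fitted with limma 3.58.1 in R 4.3.3 (8 residual and 3.54 prior degrees of freedom), with two-sided p-values adjusted across the 45037 probe sets by the Benjamini-Hochberg procedure. The smallest unit of replication is the mouse, and only 3 mice per arm limit the precision. The arrays of a mouse are paired by the animal number of the labels; their deviations from the group means correlated between the weeks at -0.36, -0.51 and 0.47 in baricitinib mice and 0.44, -0.13 and 0.49 in vehicle mice.

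Each gene's main probe set is that with the highest mean over the arrays. Every member probe set is reported; called genes of the other lists are named, otherwise up to 3 with the largest differences. The members and lists were chosen with earlier results of these data known. Results were recomputed without dim probe sets, with a level-dependent variance prior, with the mouse as a fixed or random block, with the arrays of the compared groups alone, after cyclic loess, with array weights, with the mean of a gene's probe sets, without each array, and, added after seeing the data, without the 2 narrow arrays and with the beta-actin 3' to 5' difference as a covariate. The pipeline was tested on simulated data.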

Additional observations from a re-analysis of the deposited data

How the results depend on the processing

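With only 3 arrays per group and Corin below the array median at baricitinib week 12, neither small differences nor the exact size of its fall can be resolved. Of 656 log2 differences of single genes under alternatives, 598 kept their direction and side of the threshold, 29 changed direction, 24 newly passed and 5 no longer passed. With the mouse as a replicate block, Corin was at -3.68 between the baricitinib weeks (adjusted p = 0.0102); no call of the 22 probe sets changed in the comparisons within mice, while calls over the whole table were 158 against 557 without the block. A fixed block gives no value for baricitinib against vehicle at week 12, where a random block left Corin at an adjusted p of 0.0166.

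Array weights, whose estimation did not converge, called 9 of the 22 probe sets between the baricitinib weeks, 6 against vehicle at week 12, 3 between the vehicle weeks, 5 between the arms at week 0 and 7 for the difference of changes, in fits that called 11277, 11205, 4986, 5712 and 6590 of all. With only the 2 groups compared, 0 were called against vehicle at week 12 (Corin adjusted p = 0.118), in a fit that called 55 of all against 261 with all groups. Without the 2 narrow arrays, 2 were called between the baricitinib weeks and 2 against vehicle. The fits without the narrow arrays called 860 and 1008 of all. Leaving out 1 array gave 1 to 6 calls between the baricitinib weeks, 0 to 2 against vehicle and 0 to 1 for the difference of changes.

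No direction was settled for several values near 0, and the cause was not tested. Array weights gave 0.22 for Prom1, 0.28 for Ncam1 and 0.10 for Wif1 against vehicle at week 12, and 0.0593 for Alpl, 0.0418 for Vcan and 0.81 for Wif1 between the vehicle weeks. The mean of probe sets gave -0.0171 for Ncam1 between the arms at week 0. Without the 2 narrow arrays Prom1 was at -0.15 between the baricitinib weeks. The covariate gave 0.0077 for Alpl between the vehicle weeks and -0.0291 for Prom1 between the arms at week 0. Leaving out 1 array gave ranges that crossed 0. Between the arms at week 0 these were -0.29 to 0.33 for Alpl, -0.38 to 0.22 for Ncam1 and -0.49 to 0.44 for Prom1. Between the baricitinib weeks they were -0.79 to 0.0081 for Ncam1 and -0.42 to 0.53 for Prom1. Against vehicle at week 12 they were -0.53 to 0.26 for Ncam1 and -0.52 to 0.56 for Wif1. Between the vehicle weeks they were -0.11 to 0.0723 for Alpl, -0.51 to 0.19 for Vcan and -0.82 to 0.24 for Wif1. For the difference of changes Ncam1 ran from -0.55 to 0.25.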
